A study of Mus musculus with 6 samples.

Results

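The early growth response (EGR) factors Egr1, Egr2 and Egr3, the NR4A nuclear receptors Nr4a1, Nr4a2 and Nr4a3, and the EGR corepressors Nab1 and Nab2 were examined in regulatory T (Treg) cells differentiated with or without sorafenib (Sora). These 8 genes were taken by symbol from 22939 genes in the tables, and all 8 were among the 13463 genes with enough counts to be tested. In the data, Egr2, Egr3, Nr4a1 and Nr4a3 were 2.47 to 3.65 times lower in Sora-Treg cells, Egr1 and Nr4a2 were lower by less, Nab2 was 1.34 times higher and Nab1 was not called.

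Naive CD4+ T cells came from the spleen and lymph nodes of mice carrying GFP knocked into the Foxp3 locus, on a C57BL/6J background. Both groups received the same Treg-inducing culture, in which antibodies to CD3 and CD28 engage the TCR and its costimulator, TGF-β1 drives Foxp3, and antibodies to IFN-γ and IL-4 block other fates. RNA-seq was done on the GFP+ fraction after sorting. The control group (ctrl-Treg, 3 libraries) had no Sora and the Sora-Treg group (3 libraries) was cultured with Sora, a multikinase inhibitor whose targets include RAF kinases and the VEGF receptor. The age and number of mice behind the libraries were not given in the sources used here, so p-values measure the spread between these libraries, which may be technical. The sort keeps cells with an active Foxp3 reporter, so the cells that did not express it were not measured.

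EGR and NR4A genes are immediate early genes: T cell receptor (TCR) signaling switches them on within the first wave of transcription, through calcium and calcineurin, the ERK pathway and the factors SRF, ELK, CREB and MEF2. The paper's immunoblots of CD4+ T cells in Treg-inducing culture found more phosphorylated ERK and MEK with Sora than without. An inhibitor of ERK signaling did not stop the Treg differentiation that Sora induced there. The paper also reported less phosphorylated AKT and Foxo1 with Sora in such culture. The blots came from early in culture, whereas the libraries are of GFP+ cells sorted after differentiation. The Sora dose and culture time of the libraries were not given in the sources used here. EGR proteins are zinc finger factors that bind a GC-rich site. NAB proteins have no DNA-binding domain, attach to EGR proteins and recruit the NuRD repressor complex, and Nab2 is itself an EGR-inducible gene in several cell types. NR4A proteins are orphan nuclear receptors that bind DNA as monomers or dimers. In T cells, Egr2 and Egr3 are known for restraining activation and cytokine production, and NR4A factors are known for Foxp3 induction, Treg maintenance and T cell exhaustion.

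Total counts were between 30727686 and 37717324 per library, and the biological coefficient of variation was 4.29%. The Treg markers Foxp3, Il2ra, Ctla4, Ikzf2 and Tnfrsf18 were present in every library and summed to 2981 to 3026 CPM (counts scaled to a common library size) without Sora and to 5733 to 5884 CPM with Sora, with 4 of 5 called higher. Most of that sum and of its rise was in Il2ra (1934 ± 32.1 and 3795 ± 54.1 CPM) and Ctla4 (383 ± 12.4 and 1108 ± 28.4 CPM), whereas Foxp3 itself was at 259 ± 8.99 and 272 ± 4.75 CPM (SD, n = 3; log2 fold change 0.07, edgeR adjusted p = 0.0405) and Ikzf2 was not called (0.02, edgeR adjusted p = 0.654). The 4 T cell markers, Cd3d, Cd3e, Cd3g and Cd4, summed to 1239 to 1255 CPM and 1692 to 1750 CPM, all 4 called higher. Cd3d (log2 fold change 0.75), Cd3e (0.60) and Cd3g (1.26) carried most of the rise, whereas Cd4 was near the threshold (0.06, edgeR adjusted p = 0.0416). The 6 myeloid markers summed to 92.4, 92.1 and 24.6 CPM in ctrl-Treg replicates 1 to 3 and to 22.1, 42.5 and 20.6 CPM in Sora-Treg replicates 1 to 3, with 4 of 6 called lower. The 4 B cell markers summed to 1.53 to 2.39 CPM and 0.251 to 0.365 CPM, with all 3 that were tested called lower. Cd8a and Cd8b1 together came to 13.2 to 15.1 CPM and 12.6 to 13.8 CPM, with Cd8a called lower (log2 fold change -0.71, edgeR adjusted p = 0.00872) and Cd8b1 not called. NK and erythroid markers reached at most 0.157 CPM in any library and were too low to test. In bulk libraries, fewer cells of a type and less RNA per cell cannot be told apart. The part of the Treg, T cell, myeloid, B cell and CD8 marker shifts in the member results was not tested.

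The members lie at separate loci. In GENCODE M21 on GRCm38, Egr2 is at chr10:67535475-67542188 (+ strand) and Egr3 at chr14:70077203-70082614 (+ strand). The NR4A genes are Nr4a1 (chr15:101254269-101274795, + strand), Nr4a2 (chr2:57106830-57124003, - strand) and Nr4a3 (chr4:48045153-48086447, + strand). The corepressors are Nab1 (chr1:52457294-52500679, - strand) and Nab2 (chr10:127660918-127668568, - strand).

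Promoter windows from RefSeq (GRCm38.p6, 250 bases before to 50 after a start site, 300 in all) were read for 6 of the 8 members, 10 windows in all. Egr1 and Egr3 had no entry. The windows were searched on both strands for the CRE (TGACGTCA), the EGR site (GCGNGGGCG), the NR4A monomer site or NBRE (AAAGGTCA), the AP-1 site (TGANTCA) and, by name, the CArG box bound by SRF and the MEF2 site, the latter in its wider consensus (either pyrimidine first, either purine last), which replaced a narrower one after the windows had been read. The 3 stretches that follow are the 200 bases before a start site of the Egr2, Nr4a1 and Nr4a2 genes, shown because these genes fell and carry a match to a site read by SRF, MEF2 or the EGR factors themselves. They read 5′ to 3′ on the gene's strand, hold no GENCODE exon of the gene, and have the CArG box (Egr2), the EGR site (Nr4a1) or the MEF2 site followed by the EGR site (Nr4a2) in capitals. The position of each is chr10:67537366-67537565 (+ strand) for Egr2, chr15:101266646-101266845 (+ strand) for Nr4a1 and chr2:57124004-57124203 (- strand) for Nr4a2.
Egr2: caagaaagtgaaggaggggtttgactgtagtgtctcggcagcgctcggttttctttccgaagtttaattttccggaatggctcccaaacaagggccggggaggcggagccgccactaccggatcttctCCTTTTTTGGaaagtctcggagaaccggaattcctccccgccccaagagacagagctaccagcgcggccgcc
Nr4a1: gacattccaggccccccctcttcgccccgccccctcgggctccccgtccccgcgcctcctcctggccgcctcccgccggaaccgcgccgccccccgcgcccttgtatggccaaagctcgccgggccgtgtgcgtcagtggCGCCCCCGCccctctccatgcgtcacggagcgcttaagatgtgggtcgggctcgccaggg
Nr4a2: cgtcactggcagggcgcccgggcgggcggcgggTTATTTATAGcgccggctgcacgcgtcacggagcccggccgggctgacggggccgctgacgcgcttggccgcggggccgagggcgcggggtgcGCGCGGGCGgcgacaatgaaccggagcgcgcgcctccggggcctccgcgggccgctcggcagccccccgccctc

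Egr2 has 5 windows from alternative start sites, and 4 of them hold a CArG box. It is CCTTTTTTGG in the stretch printed and CCATATATGG in 3 overlapping windows further downstream. These 3 windows share the same CCATATATGG bases, so they do not count as separate sites. A CArG box is in 1.63% of 32851 promoter windows. The EGR site in the Nr4a1 window lies 60 to 52 bases before the start and reads on the opposite strand, and that of Nr4a2 lies 74 to 66 bases before the start. The MEF2 match of Nr4a2, TTATTTATAG, lies 167 to 158 bases before the start, and such a match is in 3.19% of all windows. The Nab1 window, chr1:52500399-52500698, holds 3 EGR sites, starting 141, 109 and 38 bases before the start and reading CGCCCACGC, GCGTGGGCG and GCGGGGGCG. An EGR site is in 5.55% of all windows, a share that was not matched for GC content. The Nab1 and Nr4a2 windows are each 81.7% G and C, and the Nr4a1 window is 72.3%. The windows of Nr4a3 and Nab2 held none of the 6 motifs, and no member window held a CRE, NBRE or AP-1 match, which are in 1.79%, 1.51% and 7.81% of all windows. A match is a description of the letters only.

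To compare the groups, each gene was tested with edgeR's quasi-likelihood test, with p-values adjusted by the Benjamini-Hochberg method over all 13463 genes. A gene was called at an adjusted p under 0.05 and was a differentially expressed gene (DEG) if its log2 fold change, Sora-Treg against ctrl-Treg, was also beyond 1 in size. Of the 8 members, 6 were called lower, where 29.9% of all tested genes were called lower, and 1 was called higher, where 29.7% were. Of the 8, 4 were DEGs lower, against 4.97% of tested genes, and 0 were DEGs higher, against 6.3%. All Sora-Treg libraries lay below all ctrl-Treg libraries for 6 members (32.0% of tested genes) and above for 1 (31.8%). The median log2 fold change was -0.90 over the 8 members and 0.00 over all tested genes. A call alone was thus common in these data. The 4 members past the DEG limit stood further from the bulk of genes than Egr1, Nr4a2 and Nab2, as that limit requires. Members were chosen with earlier results of these data known, so their counts beside these shares do not describe a blind set.

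**Figure D1:**
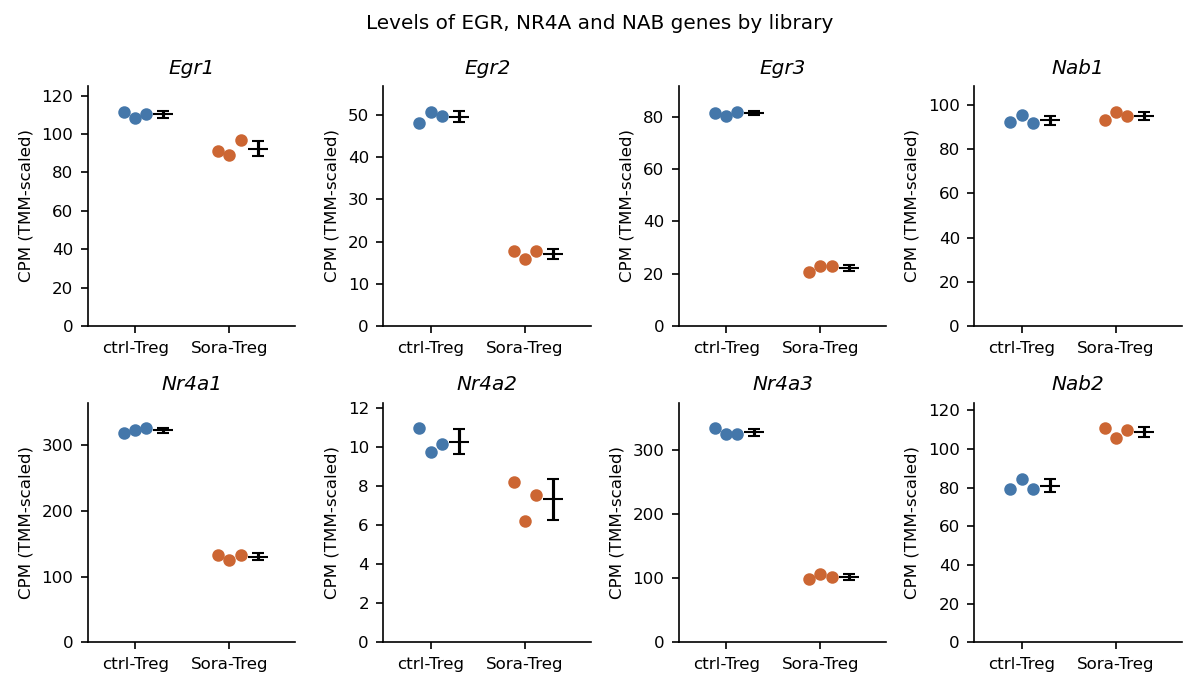
Level of each member in CPM after TMM scaling (y axis, from 0), with 1 point per library and the group mean ± SD (n = 3) beside it in black. Points of the groups are apart for 7 members, with the widest relative gap in Egr3 (81.3 against 22.2 CPM), and overlap for Nab1 (93.1 against 95.0 CPM).

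Egr3, which acts with Egr2 to restrain T cell activation, was at 81.6, 80.4 and 82.0 CPM in the control libraries and at 20.8, 23.0 and 22.9 CPM in the Sora-Treg libraries. The groups were far apart, and every Sora-Treg library was below every ctrl-Treg library. Egr3 was 3.65 times lower, with a log2 fold change of -1.87 ± 0.05 SE (adjusted p = 4.61e-19, edgeR). Of all tested genes, 218 had a more negative log2 fold change.

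Egr2, a factor linked to T cell anergy, was at 48.2, 50.8 and 49.8 CPM in ctrl-Treg cells and at 17.7, 15.8 and 17.9 CPM in Sora-Treg cells. Its groups did not overlap, and Sora-Treg replicate 2 was the lowest library. Egr2 was 2.89 times lower, with a log2 fold change of -1.53 ± 0.06 SE (adjusted p = 5.92e-16, edgeR), and 343 tested genes fell further.

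Egr1, the family member that most cell types induce after mitogen stimulation (chr18:34859823-34864984 in GENCODE M21 on GRCm38, + strand), was at 112, 108 and 111 CPM in ctrl-Treg cells and at 90.9, 89.3 and 96.7 CPM in Sora-Treg cells. All 3 Sora-Treg libraries were lower, by a margin small beside those of Egr2 and Egr3. Egr1 was 1.19 times lower, with a log2 fold change of -0.26 ± 0.04 SE (adjusted p = 4.54e-06, edgeR). Egr1 was no DEG, and 3613 tested genes had a more negative log2 fold change.

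Egr4, the remaining gene of the family and no member of the list, was close to the detection floor. Its counts were 26, 15 and 21 in the control libraries but 2, 8 and 1 in the Sora-Treg libraries. The fit gave a log2 fold change of -2.31 ± 0.60 SE (adjusted p = 0.00196, edgeR), which rests on these few counts.

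Nr4a3, also known as Nor1, was at 334, 324 and 325 CPM in ctrl-Treg cells and at 98.5, 106 and 101 CPM in Sora-Treg cells. No library of either group came near the other group. Nr4a3 was 3.21 times lower, with a log2 fold change of -1.68 ± 0.03 SE (adjusted p = 3.00e-21, edgeR), with 279 tested genes falling further.

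Nr4a1, or Nur77, whose reporter is widely used to read the strength of TCR signaling, was at 319, 323 and 326 CPM in ctrl-Treg cells and at 134, 125 and 133 CPM in Sora-Treg cells. The control libraries lay within a few percent of each other and well above the Sora-Treg libraries. Nr4a1 was 2.47 times lower, with a log2 fold change of -1.31 ± 0.03 SE (adjusted p = 1.10e-19, edgeR), and 477 tested genes had a more negative log2 fold change.

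Nr4a2, or Nurr1, was the lowest of the members in CPM and the one whose replicates varied most. It was at 10.9, 9.73 and 10.1 CPM in ctrl-Treg cells and at 8.21, 6.18 and 7.56 CPM in Sora-Treg cells, from counts of 431, 354 and 323 and of 249, 197 and 269. The groups did not overlap, with a gap of 1.52 CPM between the nearest libraries. Nr4a2 was 1.40 times lower, with a log2 fold change of -0.49 ± 0.11 SE (adjusted p = 6.69e-04, edgeR), which is not past the DEG limit.

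Nab2 was the member that moved the other way. It was at 79.3, 84.7 and 79.1 CPM in ctrl-Treg cells and at 111, 106 and 110 CPM in Sora-Treg cells, and the groups did not overlap. Nab2 was 1.34 times higher, with a log2 fold change of 0.42 ± 0.04 SE (adjusted p = 2.49e-09, edgeR), with 2397 tested genes rising further. In GENCODE, exons of Nab2 share 40 bases with Stat6, 151 with Nemp1 and 1050 with Gm16229, all on the opposite strand, and the strand setting of the counting was not given in the sources used here. Stat6 had a log2 fold change of -0.01 (edgeR adjusted p = 0.860) and Nemp1 of 0.20 (edgeR adjusted p = 3.18e-04). Gm16229 was not among the counted genes under that symbol, so it could not be analysed.

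Nab1, the other corepressor, was at 92.1, 95.3 and 91.7 CPM in ctrl-Treg cells and at 93.3, 96.9 and 94.9 CPM in Sora-Treg cells, and the groups overlapped. The fit gave a log2 fold change of 0.03 ± 0.04 SE (adjusted p = 0.498, edgeR), with a 95% interval from -0.04 to 0.10. Its direction depended on the scaling. TMM, the main scaling, corrects library totals for composition, and with libraries scaled by their totals alone the log2 fold change of Nab1 was -0.09 (edgeR adjusted p = 0.0483, in a range of 0.0468 to 0.873 over the alternatives). That scaling moved the median of all genes by -0.12 on the log2 scale and the called genes from 3994 higher and 4028 lower to 2862 higher and 5614 lower.

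**Figure D2:**
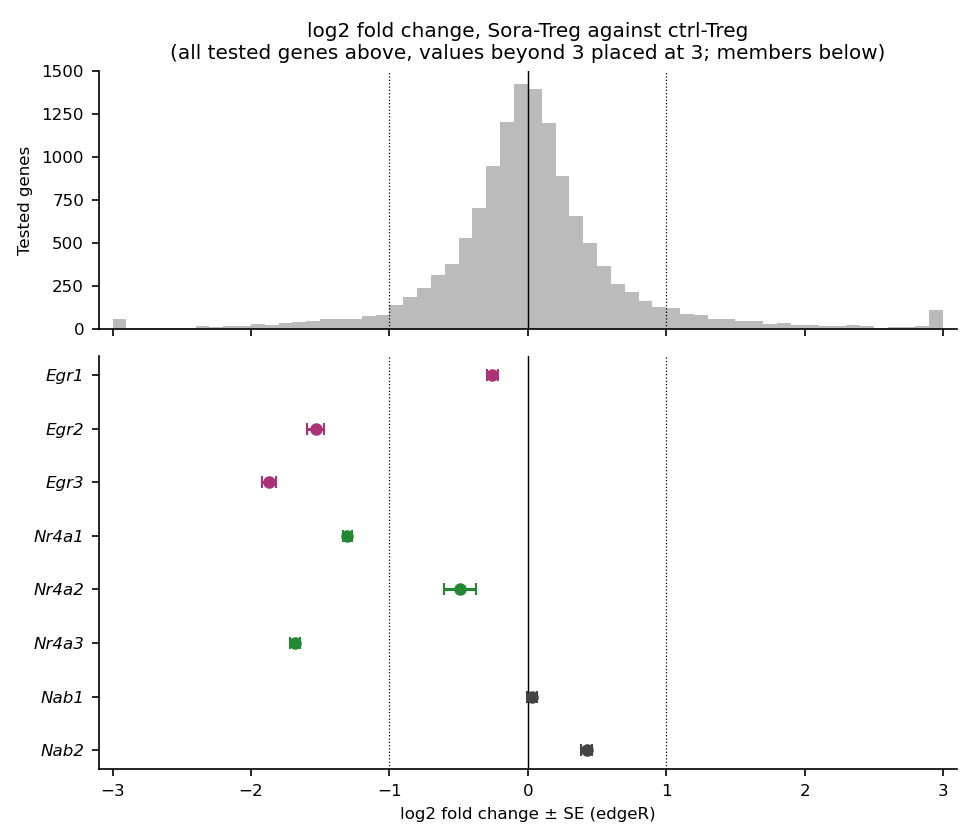
Top, number of tested genes in each 0.1-wide bin of log2 fold change (x axis, Sora-Treg against ctrl-Treg), with values beyond 3 placed at the ends. Bottom, log2 fold change ± SE of each member on the same axis, with dotted lines at the DEG limits of -1 and 1: Egr3 (-1.87), Nr4a3 (-1.68), Egr2 (-1.53) and Nr4a1 (-1.31) lie beyond -1, and Nab2 (0.42) lies right of 0.

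The summed myeloid markers were at 92.4, 92.1 and 24.6 CPM in the controls, and the members were fitted once more with ctrl-Treg replicate 3, the lowest of these, as the only control. In that fit the log2 fold changes were -0.26 for Egr1, -1.54 for Egr2, -1.88 for Egr3, -1.32 for Nr4a1, -0.47 for Nr4a2, -1.67 for Nr4a3, 0.05 for Nab1 and 0.46 for Nab2. The fit was added after seeing the data, and it assumes that the lone control varies like the Sora-Treg libraries. Sora-Treg replicate 2 was at 42.5 CPM of these markers, above that control, so the fit does not balance them. The part of the myeloid markers in the member results was not tested.

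Levels can be compared between genes only per length, in FPKM, which is CPM divided by gene length in kilobases, scaled here by library totals without TMM. In ctrl-Treg cells the order of mean FPKM was Nr4a1 (65.5 ± 0.551), Nr4a3 (44.7 ± 0.892), Egr1 (37.3 ± 0.666), Nab2 (32.7 ± 1.20), Egr3 (20.5 ± 0.247), Nab1 (18.7 ± 0.365), Egr2 (5.68 ± 0.134) and Nr4a2 (2.66 ± 0.170; SD, n = 3 for each), and no neighbours in that order overlapped between libraries. In Sora-Treg cells the order was Nab2 (40.5 ± 1.02), Egr1 (28.9 ± 1.21), Nr4a1 (24.5 ± 0.937), Nab1 (17.7 ± 0.310), Nr4a3 (12.9 ± 0.489), Egr3 (5.17 ± 0.282), Egr2 (1.81 ± 0.124) and Nr4a2 (1.75 ± 0.250). Of these neighbours, Egr2 and Nr4a2 overlapped between libraries. By mean FPKM, Nab2 thus stood below Nr4a1, Nr4a3 and Egr1 in the control order and above every other member in the Sora-Treg order.

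These orders depend on the gene length. The length that the deposited FPKM implies for Egr2 is 9083 bases, against 3398 bases of exon in GENCODE M21. It is longer than the whole Egr2 gene there, introns included, so it cannot be an exon length of that annotation. The FPKM ranks and shares of Egr2 rest on it. The lengths of the other members differ by less, such as 3072 against 4484 bases for Egr1 and 5123 against 3509 bases for Nr4a1. Per kilobase of GENCODE exon, a scale added after seeing the data, Egr2 was at 14.6 ± 0.389 CPM per kilobase without Sora and 5.04 ± 0.339 with it, beside 18.5 ± 0.185 and 5.05 ± 0.284 for Egr3. On that scale Nr4a1 (37.2 ± 1.38) and Nab2 (37.0 ± 0.874) overlapped at the top of the Sora-Treg order, so Nab2 did not stand alone there.

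Within each family the members fell unequally, and the makeup of the family transcripts shifted. The summed FPKM of Egr1, Egr2 and Egr3 was 63.5 ± 0.772 without Sora and 35.8 ± 1.38 with Sora, and that of the NR4A genes was 113 ± 0.764 and 39.1 ± 0.711 (SD, n = 3). Egr1 made up 58.8% ± 0.363 of the EGR sum in the controls and 80.5% ± 0.543 with Sora. Egr3 made up 32.3% ± 0.0957 and 14.4% ± 0.802, and Egr2 8.96% ± 0.315 and 5.06% ± 0.271. These shares rest on the deposited lengths. With GENCODE lengths Egr1 made up 42.6% ± 0.548 and 67.1% ± 0.245, Egr2 25.3% ± 0.721 and 16.4% ± 0.812, and Egr3 32.0% ± 0.195 and 16.5% ± 0.981, so the Egr2 share then differed by -8.90 percentage points in place of -3.90.

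In the NR4A sum, Nr4a1 and Nr4a3 remained the main components in both groups. The share of Nr4a1 was 58.1% ± 0.704 and 62.6% ± 1.28, that of Nr4a3 39.6% ± 0.579 and 32.9% ± 1.84, and that of Nr4a2 2.36% ± 0.136 and 4.47% ± 0.569 without and with Sora. For all 6 shares the groups did not overlap, but the shares within a family add up to the whole and are not independent. The exact permutation test over libraries (two-sided) gave p = 0.1 for each, also after Benjamini-Hochberg adjustment over the 6, which is the smallest p that 3 libraries against 3 can give.

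**Figure D3:**
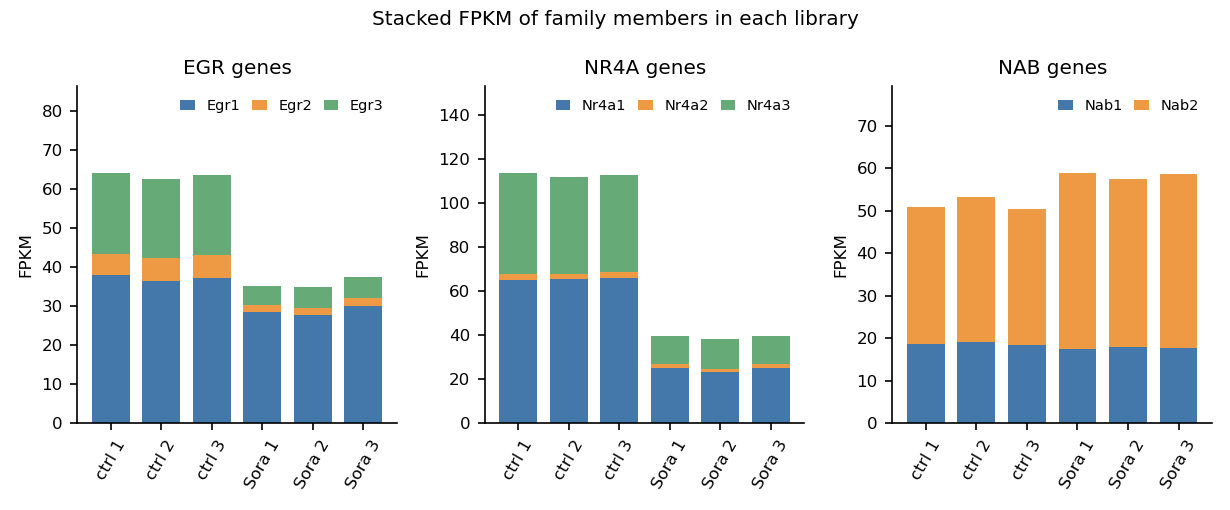
FPKM of the family members stacked in each of the 6 libraries, for the EGR, NR4A and NAB genes in separate panels (y axes in FPKM, from 0). The EGR sum falls from 63.5 to 35.8 with the Egr3 part losing the most FPKM, the NR4A sum falls from 113 to 39.1 in both main members, and the NAB sum goes from 51.5 to 58.2 with the Nab2 part growing.

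The ratio of 2 genes within a library does not depend on how libraries are scaled, and it was compared for 7 pairs. The log2 FPKM ratio of Egr3 to Egr1 was -0.87 ± 0.01 without Sora and -2.48 ± 0.09 with Sora, and that of Egr2 to Egr1 was -2.72 ± 0.06 and -3.99 ± 0.07 (SD, n = 3). Relative to Egr1, Egr3 was thus 3.06 times and Egr2 2.43 times lower in Sora-Treg cells. The ratio of Egr3 to Egr2 differed by less, from 1.85 ± 0.05 to 1.51 ± 0.16. Among NR4A genes, the log2 ratio of Nr4a3 to Nr4a1 went from -0.55 ± 0.04 to -0.93 ± 0.11, and that of Nr4a2 to Nr4a1 from -4.62 ± 0.10 to -3.81 ± 0.16. Nr4a2 to Nr4a3 went from -4.07 ± 0.06 to -2.89 ± 0.27, the largest shift of the NR4A pairs. Nab2 to Nab1 went from 0.80 ± 0.02 to 1.20 ± 0.06. The groups did not overlap for any of the 7 pairs, and the exact permutation p was 0.1 for each, adjusted or not. Any full separation of the groups gives that p. Pairs within a family share genes, so the 7 are not independent. Full separation was common among single tested genes (32.0% below and 31.8% above), and its share among other gene pairs was not computed.

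With less EGR and more Nab2 transcript, the balance between corepressor and factor transcripts shifted, a quantity chosen after the member values were seen. Summed NAB FPKM over summed EGR FPKM was 0.792, 0.851 and 0.791 in the controls, against 1.67, 1.65 and 1.56 in the Sora-Treg libraries. NAB transcripts were thus fewer than EGR transcripts in each control library and more in each Sora-Treg library. With GENCODE lengths the ratio was 0.872 ± 0.0305 and 1.96 ± 0.0651, on the same sides of 1.

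To set the members beside the rest of their pathway, 5 lists of genes from general knowledge were read in the same fit. The lists were drawn up with earlier results of these data known. They were not split by the direction of any link, so their counts do not read the activity of a factor. The first list held 29 upstream regulators, namely serum response, CREB, MEF2 and NFAT factors, calcineurin and the ERK pathway. Of these 11 were called higher (37.9%), 11 lower (37.9%) and 7 neither, with a median log2 fold change of 0.01, where 29.7% of all tested genes were called higher and 29.9% lower. With libraries scaled by their totals the split was 9 higher and 15 lower. Crem, a CREB-family factor with repressor isoforms, had a log2 fold change of 1.59 ± 0.05 SE (adjusted p = 2.24e-18, edgeR), and that of Hdac5, a MEF2-binding deacetylase, was 0.90 ± 0.05 (edgeR adjusted p = 1.59e-12). Nfatc2 rose by 0.37 ± 0.03, while Nfatc1, an NFAT factor that TCR signaling induces, had a log2 fold change of -0.72 ± 0.03 (edgeR adjusted p = 1.15e-14). Creb1 (-0.51 ± 0.04) and the SRF partner Elk4 (-0.30 ± 0.05) were lower as well.

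Other immediate early and TCR-induced genes were split, and more were called higher than lower. Of 45 genes, Egr4 included, 25 were called higher (55.6%), 14 lower (31.1%) and 6 neither, with a median log2 fold change of 0.19. Among all tested genes 29.7% were called higher and 29.9% lower, so the share called lower was near that of all genes. The AP-1 factor Fosl2 (1.51 ± 0.03, edgeR adjusted p = 1.48e-21), the zinc finger factor Klf6 (1.38 ± 0.04, edgeR adjusted p = 9.01e-19) and Zfp36, which destabilises cytokine mRNAs (1.17 ± 0.04, edgeR adjusted p = 4.04e-17), rose. Nfkbid, a nuclear IκB protein, fell along with the EGR and NR4A genes (-1.85 ± 0.05, edgeR adjusted p = 2.71e-18), as did the ERK pathway inhibitor Spry1 (-0.92 ± 0.05, edgeR adjusted p = 6.43e-14) and Nfkbia (-0.48 ± 0.03, edgeR adjusted p = 7.23e-13). All FOS, JUN and IER genes on the list were also read, a choice made after their values were seen. Fos (0.71 ± 0.04), Fosb (0.93 ± 0.08), Jun (0.19 ± 0.03), Junb (0.51 ± 0.03), Jund (0.49 ± 0.03) and Ier3 (0.63 ± 0.06) were called higher like Fosl2, and Fosl1 (-1.85 ± 0.16), Ier2 (-0.53 ± 0.03) and Ier5 (-0.15 ± 0.03) were called lower like the 6 EGR and NR4A members.

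Genes linked to EGR factors in T cells, such as anergy genes, checkpoint receptors and cytokines, numbered 22, of which 21 were tested and Nrgn was not. Of these 14 were called higher (66.7%), 5 lower (23.8%) and 2 neither, with a median log2 fold change of 0.32. Among all tested genes 29.7% were called higher and 29.9% lower. Tnfrsf9, the costimulatory receptor 4-1BB, rose from 505 ± 4.56 to 2379 ± 11.4 CPM (log2 fold change 2.24 ± 0.02, edgeR adjusted p = 1.32e-26). The cytokine gene Tgfb3 rose from 1.38 ± 0.316 to 79.3 ± 1.57 CPM (5.84 ± 0.09), and Ndrg1, an anergy-associated gene, from 415 ± 2.39 to 1244 ± 10.4 CPM (1.58 ± 0.02). Lower genes were Il2, the T cell growth factor, with 74.2 ± 3.92 and 1.53 ± 0.140 CPM (-5.59 ± 0.08, edgeR adjusted p = 1.41e-23), Id3, an inhibitor of E proteins (-1.69 ± 0.11), and the CDK inhibitor Cdkn1a (-0.29 ± 0.03).

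The list of 22 genes linked to NR4A factors counted 12 higher (54.5%), 5 lower (22.7%) and 5 neither, with a median log2 fold change of 0.16. For this list and the cofactors below, the shares among all tested genes were 29.7% higher and 29.9% lower. Ctla4 (1.53 ± 0.03) and the IL-2 receptor chain Il2ra (0.97 ± 0.02), both also Treg markers, and the cytokine Il21 (2.31 ± 0.09) rose. Il2, the exhaustion factor Tox (-0.88 ± 0.09) and the checkpoint receptor Pdcd1 (-0.75 ± 0.07) were lower. Other genes of the list were read after their values were seen. Lag3 (0.75 ± 0.05), Tigit (0.46 ± 0.08), Cd38 (1.80 ± 0.15) and Entpd1 (1.55 ± 0.09) were called higher. Tox2 (-0.67 ± 0.21) was called lower and Havcr2 (0.08 ± 0.24) was not called. Il2 and Lag3 are on both lists. Of 18 cofactors, namely NuRD subunits, retinoid X receptors and coactivators, 17 were tested and Rxrg was not, and 6 were called higher (35.3%), 6 lower (35.3%) and 5 neither, with a median of 0.03. With libraries scaled by their totals, the split of the cofactors was 2 higher and 9 lower, and with upper quartile scaling 4 higher and 7 lower. Rxra, a partner of Nr4a1 and Nr4a2, had a log2 fold change of -0.85 ± 0.07 (edgeR adjusted p = 5.57e-10) while Rxrb rose by 0.34 ± 0.04. The coactivators Ncoa3 (0.32 ± 0.03) and Ncoa1 (0.21 ± 0.05) rose, and Ncoa2 (-0.41 ± 0.04) and the deacetylase Hdac2 (-0.26 ± 0.04) were lower.

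**Figure D4:**
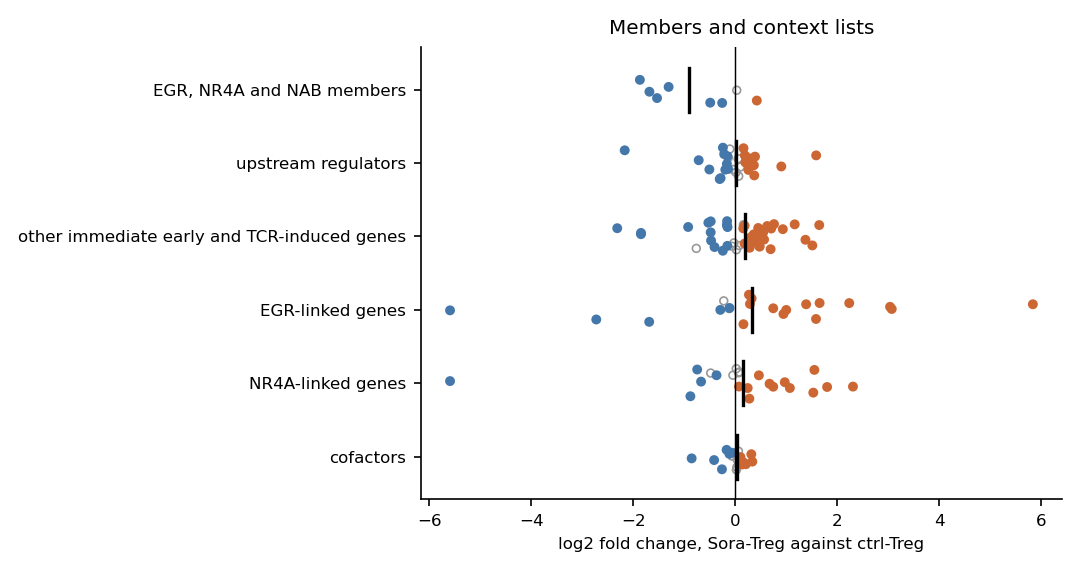
Log2 fold change (x axis, Sora-Treg against ctrl-Treg) of each member and of each tested gene of the 5 lists, 1 point per gene, filled where called (orange higher, blue lower) and open where not, with a black bar at the median. The member median is -0.90, and the list medians lie between 0.01 and 0.32.

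The genes most like each member were looked up by Pearson's r of log2 CPM over the 6 libraries, among the 9105 genes whose mean log2 CPM reached 3. The 6 points fall into 2 groups of 3, so r mainly reads the difference between the groups and carries no p. Egr3 was followed most closely by Cdca7, a MYC and E2F target, and Oxct1, a ketone body enzyme. Nr4a3 was matched by Slfn2 and Tfdp1, a partner of E2F factors, Nr4a1 by Lrrc28 and Capn5, and Egr2 by Zfp385a and Inf2. Egr1 was matched by Smcr8 and Agk, Nr4a2 by Atf4 and Pinx1, and Nab2 by Sqstm1 and Slc10a7, and r was at least 0.996 for each of these 7 members. Nab1, whose groups overlapped, reached r = 0.978 with Sdhd and 0.973 with Rbm12b2. None of these genes is on the lists of the pathway.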

How the data were processed

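Raw counts for each gene symbol were deposited by the authors, with FPKM in which 1 fixed length per gene scales the counts per library total. The paper's methods name Bowtie2 and GRCm38. The submitters' processing notes list fastp, HISAT2, HTSeq, R 3.2.0, DESeq2 and GRCm39. The 2 accounts differ, the annotation release, strand setting and treatment of reads matching several genes were not given in the sources used here, and GRCm38 coordinates are used only to locate genes. Libraries were prepared from total RNA with the VAHTS Universal V5 kit.

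Groups and replicate numbers came from the labels. Counts were tested with edgeR 4.0.16 in R 4.3.3 (TMM, filterByExpr, quasi-likelihood test, Benjamini-Hochberg over all tested genes), after tests on simulated data. CPM are TMM-scaled. A count of 3, the floor that a count of 0 allows, is 0.0795 to 0.0976 CPM by library totals without TMM, counting error only. Named genes were all members, at most 3 called genes per list and direction with the smallest adjusted p, Egr4, and the 2 genes most like each member. The FOS, JUN and IER genes, the markers and the genes overlapping Nab2 were named outside that rule, as were Lag3, Tigit, Cd38, Entpd1, Tox2 and Havcr2. Context lists came from general knowledge. Members and lists were chosen with earlier results of these data known. Alternatives used DESeq2 1.42.0, limma 3.58.1 on log2(FPKM + pseudocount), other scalings and filters, and libraries left out. RefSeq held 97.5% of the table symbols.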

Additional observations from a re-analysis of the deposited data

How the results depend on the processing

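The calls of Egr1, Egr2, Egr3, Nr4a1, Nr4a2, Nr4a3 and Nab2 kept their direction and stayed past the threshold under all 18 alternatives. Log2 fold changes ranged from -0.37 to -0.23 for Egr1, from -0.61 to -0.38 for Nr4a2 and from 0.30 to 0.46 for Nab2, and the highest adjusted p of these was 0.0306, for Nr4a2. Members called lower numbered 6 or 7, the seventh being Nab1, which changed direction under 5 alternatives: -0.00760 with upper quartile scaling, -0.0850 with library totals, -0.0804 and -0.0844 with limma on log2(FPKM + 1) and log2(FPKM + 0.1), and -0.0804 with limma and no filter. Called cofactors that were higher numbered 2 with library totals and under each limma setting, and 3 with ctrl-Treg replicate 3 as the only control, where EGR-linked genes called lower also numbered 3. With CPM in place of FPKM, the share differences (Sora-Treg minus ctrl-Treg, percentage points) were 24.4 for Egr1, -7.56 for Egr2, -16.8 for Egr3 and 1.49 for Nr4a2. With GENCODE lengths they were 24.5, -8.90, -15.6 and 1.52. For the cofactor, EGR-linked and Nab1 changes the cause was not tested.

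Over the 13463 tested genes, the deviations of libraries with the same number were barely correlated (-0.0438, 0.0591 and 0.0299 for replicates 1 to 3). Whether libraries with the same number came from the same mice was not tested. With the replicate block, the members again counted 6 lower, 1 higher and 4 DEGs, and the block moved no call of a member.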
